A study of Sus scrofa with 13 samples.

Results

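Interferon-stimulated genes are described here in the outflow vein of pig arteriovenous fistulas, the vein segment that takes arterial flow once an artery has been joined to a vein for haemodialysis access. The genes came from a fixed list of 37 names for 36 genes, since DDX58 and RIGI name the same gene. A member is a protein-coding row of the deposited table that carries one of these names. There were 32 such rows among 30477, and 30 of them passed the filter on low values. IFIT3, IFI6, GBP1 and XAF1 had no row of that name. IFI6 and GBP1 were found by their Ensembl identifiers and are given separately, and IFIT3 and XAF1 were not analysed here.

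Cells that sense viral or displaced nucleic acid through RNA helicases such as RIG-I, or that receive interferon from a neighbour, phosphorylate STAT proteins. After type I interferon, a complex that holds STAT2 and IRF9 switches on a large set of target genes, while the response to interferon-gamma does not need that complex and includes IRF1. The targets include RNA sensors, the ubiquitin-like protein ISG15 with its ligase and protease, and effectors that block viral RNA, protein synthesis or particle release. In vessels, endothelial cells, smooth muscle cells, fibroblasts and leukocytes can all make this response.

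The vehicle group (5 libraries) received PLGA, a biodegradable polymer, in hydrogel, and the other group received 1α,25-dihydroxyvitamin D3 in nanoparticles with PLGA and hydrogel (8 libraries, 1,25 NP). Both groups are listed as vein of Sus scrofa, and neither age nor strain is stated in these labels. Libraries are named by the code in the table's header, which also marks 3 females and 2 males among vehicle libraries and 3 females and 5 males among 1,25 NP libraries. The labels do not say that each library came from its own animal, so p-values measure the spread between these libraries. Library totals recovered from the values ran from 30261776 to 50271231 reads. The endothelial marker PECAM1 lay between 34.8 and 94.1 RPKM over all libraries and the smooth muscle myosin MYH11 between 12.8 and 852 RPKM, where RPKM is reads scaled to gene length and to the size of the library. In bulk RNA, fewer cells of a type and less RNA per cell cannot be told apart.

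No interferon-stimulated gene differed between 1,25 NP and vehicle veins beyond the spread between libraries. Of the 30 members tested, 0 passed at an adjusted p of 0.05 (limma on log2(RPKM + 0.5), Benjamini-Hochberg adjustment over 14579 genes), where 0.0% of all genes tested passed. At an unadjusted p under 0.05 there were also 0 members, against 4.01% of all genes, and limma voom on the recovered reads gave 0 members by either measure. The smallest p-value belonged to IRF9 (limma, adjusted p = 0.795). The log2 difference, 1,25 NP minus vehicle, was below 0 for 24 of 30 members, against 56.2% of all genes tested. The median over members was -0.30, and over all genes -0.071. The count changed with vehicle library P17: without it, 19 of 30 members lay above 0, against 44.5% of all genes, and the median over members was 0.14. In that fit 0 members passed, where 0.00686% of all genes did. Without vehicle P13 instead, 29 of 30 members lay below 0 (median -0.55), against 65.4% of all genes. P17 is a female library, and in males alone 22 of 30 members lay below 0 (median -0.24), against 64.6% of all genes. That fit had only 2 vehicle libraries, P14 and P16, beside 5 treated ones. Among vehicle libraries, only P17 lay above P16 in the mean over members. For all 32 members the ranges of the groups overlapped, where 0.096% of all genes had groups that did not.

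Averaged over the 32 members as log2(RPKM + 0.5), vehicle libraries had 1.92 in P13, 2.37 in P14, 2.73 in P15, 3.17 in P16 and 4.34 in P17. The 1,25 NP libraries ran from 1.85 in P23 over a median of 2.71 to 3.42 in P24. The 4 vehicle libraries other than P17 lay within the treated range, and P17 stood above all 12 other libraries. The group means were 2.91 ± 0.921 (SD, n = 5) and 2.62 ± 0.531 (SD, n = 8), a difference of -0.28, smaller than either SD. The vehicle mean was 2.55 ± 0.528 (SD, n = 4) without P17, and the difference was then 0.075. The group medians, 2.73 and 2.71, differed by -0.022. Within females the difference of means was -0.24 (3 vehicle and 3 treated libraries) and within males -0.23 (2 and 5). The female vehicle libraries were P13, P15 and P17, of which only P17 lay above the treated female range of 2.24 to 3.42. The male ones were P14, inside the treated male range of 1.85 to 3.14, and P16, just above it. Each value therefore rests on few vehicle libraries.

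**Figure D1:**
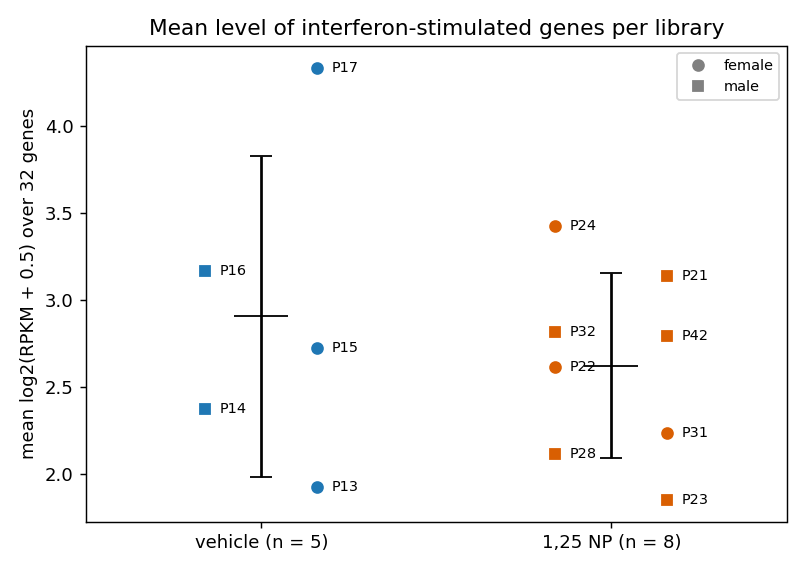
Mean log2(RPKM + 0.5) over the 32 interferon-stimulated genes in each library, by group; circles are females, squares males, horizontal bars the group mean and vertical bars 1 SD. Vehicle P17 lies at 4.34, and the other 12 libraries lie between 1.85 and 3.42 in both groups.

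The transcription factors of the response were read first. IRF9, the DNA-binding part of the complex with STAT2, had 10.2 RPKM in P13, 6.39 in P14, 8.08 in P15, 12.8 in P16 and 39.9 in P17, and ran from 3.39 over a median of 7.68 to 12.4 RPKM in 1,25 NP veins. All 8 treated libraries lay below the vehicle mean, yet they overlapped the 4 vehicle libraries other than P17. The log2 difference was -0.75 (SE 0.40), and -0.33 (SE 0.33) without P17. STAT2, a signal-carrying part of that complex, had 23.8, 26.4, 31.9, 45.9 and 48.7 RPKM in P13 to P17 and from 14.1 over 28.1 to 40.4 RPKM in 1,25 NP veins, and its log2 difference was -0.37 (SE 0.27). STAT2 was the most even member of this group across libraries. IRF7, the factor that amplifies type I interferon, was low: 1.51, 0.851, 0.215, 1.63 and 4.33 RPKM in P13 to P17, and from 0.148 over 0.560 to 3.51 RPKM in 1,25 NP veins. Its highest treated value, in P28, stood well apart from the other 7, of which the highest was 0.846 RPKM. IRF1, an early target of interferon-gamma, had its highest value in P16, not in P17: 12.3, 22.2, 22.2, 66.5 and 55.1 RPKM in P13 to P17 against 9.85 over 20.2 to 48.4 RPKM in 1,25 NP veins. All 4 factors had a log2 difference below 0 with P17 (median -0.57) and without it (median -0.29), and 0 of 4 passed. For IRF1 the log2 difference was -0.47 (SE 0.46) with all libraries and -0.18 (SE 0.46) without P16.

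Among the RNA sensors, DHX58, which encodes the RIG-I-like helicase LGP2, had the lowest fitted difference of all members. It had 1.88, 1.502, 1.09 and 2.64 RPKM in P13 to P16 and 18.2 in P17, and 0.480 over 1.45 to 3.35 RPKM in 1,25 NP veins. P17 lay above all other libraries, and the other 4 lay within the treated range. The log2 difference was -0.84 (SE 0.52; limma, adjusted p = 0.795), and -0.22 (SE 0.36) without P17. DDX58, the gene of RIG-I itself, had 1.95, 3.49, 6.67 and 5.503 RPKM in P13 to P16, 26.9 in P17, and 2.32 over 7.85 to 12.8 RPKM in 1,25 NP veins. Its treated median lay above all vehicle libraries but P17, and the log2 difference turned from 0.14 (SE 0.53) to 0.65 (SE 0.45) without that library, the highest value of any member in that fit (limma, adjusted p = 0.974). IFIH1, which encodes the long-RNA sensor MDA5, had a log2 difference of -0.24 (SE 0.41), and 12.98 RPKM in P17 against 1.70 to 7.25 in the other 12 libraries.

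ISG15, a ubiquitin-like protein that is joined to other proteins and also secreted, had the widest interval of any member. It had 5.82, 1.67, 2.25 and 9.04 RPKM in P13 to P16 and 156 in P17. In 1,25 NP veins it ran from 1.05 in P31 over a median of 4.85 to 29.9 in P28. Apart from P17, the highest library was therefore a treated one. The log2 difference was -0.60 (SE 0.96), with a 95% interval of -2.66 to 1.45, and 0.43 (SE 0.77) without P17. USP18, the protease that removes ISG15 and restrains the interferon receptor, had 2.87, 2.95, 2.75 and 2.04 RPKM in P13 to P16, 19.7 in P17, and 0.679 over 2.30 to 5.52 RPKM in 1,25 NP veins. The 4 other vehicle libraries lay close together, inside the treated range. HERC5, the ISG15 ligase, had 14.1 RPKM in P17 and 0.919 to 5.08 RPKM in the other 12. TRIM25, a ubiquitin ligase that activates RIG-I, was the steadiest of this group, at 14.3 to 20.8 RPKM in the other 4 vehicle libraries, 32.4 in P17 and 7.34 to 19.4 in 1,25 NP veins.

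Levels per length differed widely among the effectors. OAS2, an oligoadenylate synthetase that responds to double-stranded RNA, had the highest mean RPKM of the 32: 19.0, 11.7, 22.4 and 29.2 RPKM in P13 to P16, 179 in P17, and 11.8 over 22.1 to 43.7 RPKM in 1,25 NP veins. The treated range covered the other 4 vehicle libraries almost entirely. Its log2 difference was -0.54 (SE 0.52), and 0.096 without P17. Over the 12 libraries other than P17, OAS2 had a median of 21.9 RPKM, below the 28.1 RPKM of STAT2. OAS1 had 40.8 RPKM in P17 and 2.79 to 21.9 in the other 12 libraries, and OASL was near 0, at most 0.181 RPKM (in P31). EIF2AK2, the kinase PKR that stops translation, had 23.2 RPKM in P17 and 25.7 in 1,25 NP library P24. Its log2 difference was 0.26 (SE 0.43). OASL lay below the filter and had a difference of 0.051 (two-sided exact permutation p = 0.545, unadjusted).

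Of the GTPases, MX1, which traps viral nucleoproteins, had 5.79, 8.97, 7.25 and 13.9 RPKM in P13 to P16, 128 in P17, and 3.19 over 13.02 to 31.9 RPKM in 1,25 NP veins. Its log2 difference was -0.22 (SE 0.67) with P17 and 0.55 (SE 0.49) without. MX2 was also highest in P17, with 34.3 RPKM in P17 and 1.85 to 10.1 in the other 12. GBP2, a guanylate-binding protein known as an interferon-gamma target, did not: 4.01, 7.07, 8.79, 14.2 and 7.57 RPKM in P13 to P17 and 3.04 over 6.18 to 8.93 in 1,25 NP veins. P16 was highest and P17 stood inside the treated range. The log2 difference was -0.43 with and without P17 (SE 0.32 and 0.35), and -0.22 (SE 0.32) without P16.

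The IFIT family, which binds foreign RNA ends and translation factors, was spread more evenly. IFIT1 had 1.96, 3.95, 11.6, 9.14 and 23.2 RPKM in P13 to P17 and 1.88 over 6.98 to 14.4 RPKM in 1,25 NP veins. IFIT2 had 0.949, 2.00, 4.53, 3.53 and 5.25 RPKM in the same 5 libraries and 1.40 over 3.91 to 4.59 in treated ones, and its log2 difference was 0.0049 (SE 0.38). IFIT5 had its highest value, 12.1 RPKM, in treated library P42, against 10.4 in P17. For IFIT2 the treated and vehicle medians were 3.91 and 3.53 RPKM.

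Among the remaining effectors, the tetherin gene BST2, whose product holds budding virus at the cell surface, was high in both P16 (54.7 RPKM) and P17 (68.6 RPKM). It was at 3.87, 13.3 and 6.68 RPKM in P13, P14 and P15 and ran from 4.38 over 10.3 to 33.4 RPKM in 1,25 NP veins. RSAD2, which encodes viperin, and CMPK2, a nucleotide kinase, had 15.2 and 21.3 RPKM in P17, against at most 4.96 and 5.30 RPKM in the other 12. ZNFX1, an RNA helicase of the mitochondrial surface, had 72.5 RPKM in P17 and 13.6 to 32.6 in the other 12. IFI44 and IFI44L had 24.5 and 34.3 RPKM in P17, and IFI44L was nearly as high in P15 (31.7 RPKM) and P24 (30.1 RPKM). SAMD9, a restriction factor of poxviruses, had the highest log2 difference of all members with all libraries (0.46, SE 0.57), from 1.61, 6.97, 8.93, 13.01 and 6.66 RPKM in P13 to P17 against 1.55 over 11.2 to 21.5 in 1,25 NP veins. P17 was unremarkable for SAMD9, with 9 libraries above it. ISG20, an exonuclease, lay below the filter at 0.0537 to 1.43 RPKM over all libraries (difference -0.22; two-sided exact permutation p = 0.491, unadjusted).

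The ADP-ribosylation genes PARP9, PARP14 and DTX3L lie close together on chromosome 13 and encode proteins of ADP-ribosylation and of ubiquitin transfer. Their log2 differences were -0.096 (SE 0.47), -0.039 (SE 0.55) and 0.039 (SE 0.46). PARP14 had 1.64, 6.28, 7.00, 12.2 and 13.4 RPKM in P13 to P17 and 1.89 over 6.94 to 16.02 RPKM in 1,25 NP veins. The 3 genes were the only group by role with no member at its highest in P17.

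**Figure D2:**
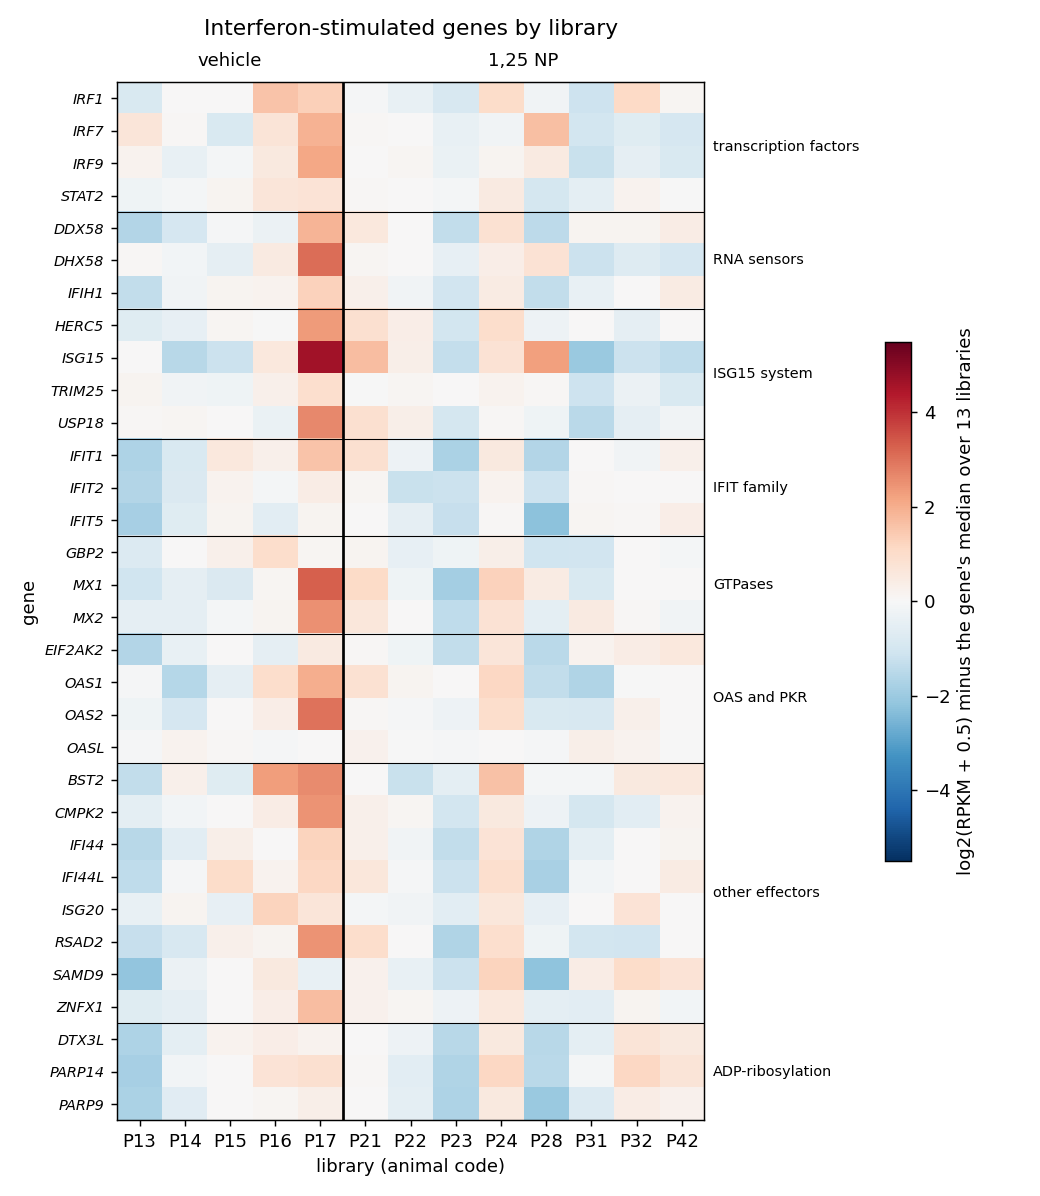
Each cell is the log2(RPKM + 0.5) of a gene in a library minus that gene's median over the 13 libraries, with genes ordered by role and vehicle and 1,25 NP libraries separated by a vertical line. The column of vehicle P17 is red for most sensors, ISG15-system genes and OAS and MX genes, and pale for SAMD9, GBP2, IFIT5 and the ADP-ribosylation genes; the columns of P13, P23 and P28 are blue for most genes.

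**Figure D3:**
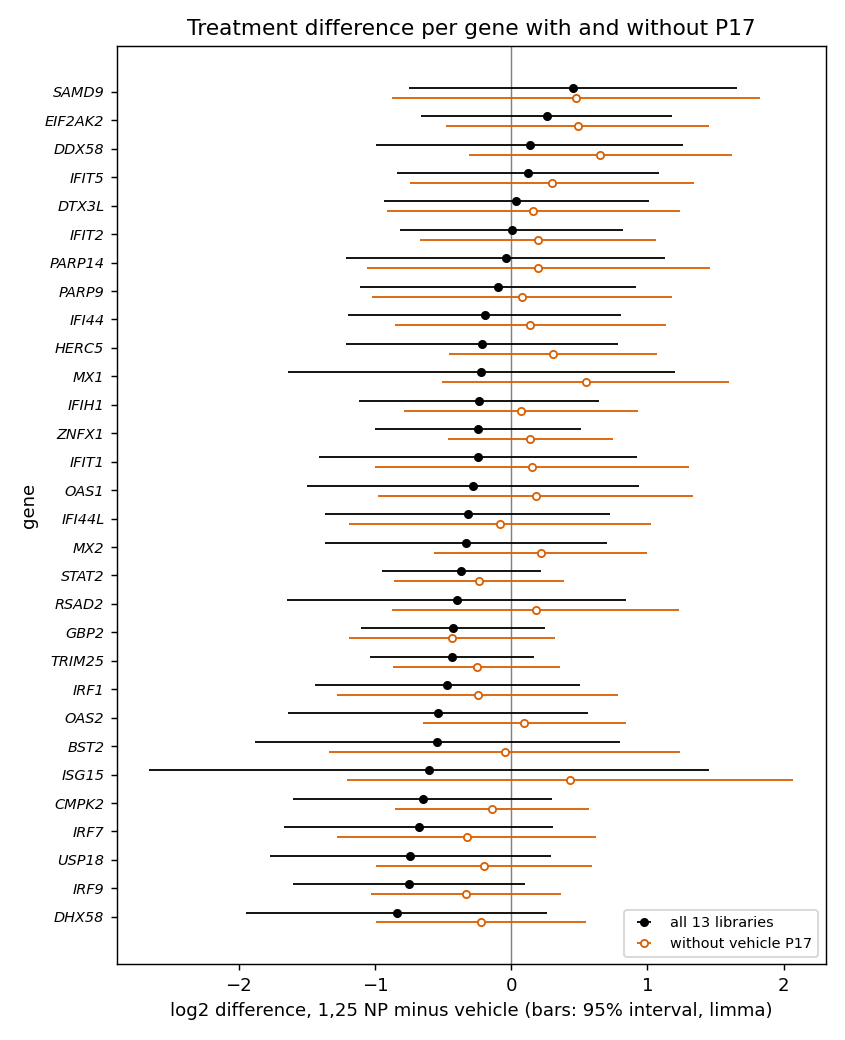
Log2 difference, 1,25 NP minus vehicle, of each of the 30 genes tested, with its 95% interval (limma), for all 13 libraries (filled) and without vehicle P17 (open). With all libraries 24 genes lie left of 0 and without P17 11 do, and all intervals include 0 in both fits.

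Vehicle library P17 carried the widest departure. It held the highest value of all 13 libraries for 22 of the 30 members tested (73.3%), against 14.3% of all genes tested. Against the median of the other 12 libraries, P17 was 38.7 times higher for ISG15, 11.2 times for DHX58, 10.8 times for MX1 and 8.21 times for OAS2. A further 9 of the 32 members were at 4 to 8 times, 8 at 2 to 4 times and 9 at 1 to 2 times, and OASL and SAMD9 were lower in P17. The row with the identifier of IFI6, a small mitochondrial membrane protein, was also highest in P17. It had 27.2, 23.8, 44.4 and 63.3 RPKM in P13 to P16, 1459 in P17, and 11.9 over 49.8 to 109 RPKM in 1,25 NP veins. IFITM3, an interferon-induced membrane protein outside the member list, had 280 RPKM in P17 and 18.04 to 74.9 in the other 12 libraries.

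Of 11 interferon genes listed, 5 had a row of that name, and transcripts of most of these were scarce. The other listed interferons were not analysed here. IFNB1 had 2 reads in all 13 libraries together and 0 in P17, which allows up to 0.107 RPKM at 3 reads, a limit for counting error only. IFNG also had 0 reads in P17, which allows up to 0.0702 RPKM, and was at most 0.577 RPKM in any library (P32). IFNA1 and IFNK had 0 reads throughout, and IFNE had 0.806 RPKM in P17 and 6.72 RPKM in P31.

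Markers of other cells also set P17 apart. The summed RPKM of the 10 smooth muscle markers was 6077 in P17, 438 to 992 in the other vehicle libraries and 344 to 4485 in 1,25 NP veins, and 9 of the 10 markers were highest in P17. Their log2 differences lay below 0 for 10 of 10 with all libraries (median -0.59), against 56.2% of all genes tested. Without P17 they did for 6 of 10 (median -0.050), against 55.5% of all genes. The summed level of 8 erythrocyte and platelet markers, led by the globin HBB, was 4413 RPKM in P17, 27.9 to 160 in the other vehicle libraries and 15.03 to 78.7 in 1,25 NP veins. HBB gave 4248 RPKM of the sum in P17, and 4 of the 8 markers were highest there. The platelet marker ITGA2B had 9.81 RPKM in P17 and 11.1 in P15. The 7 neutrophil markers summed to 1.01 RPKM in P17, the lowest of all libraries. MPO had 0 reads in 9 of the 13 libraries, P17 among them. The 15 T and NK cell markers summed to 31.5 RPKM in P17, 32.2 to 134 in the other vehicle libraries and 27.3 to 87.0 in 1,25 NP veins. The 14 macrophage markers summed to 726 RPKM in P17, inside the ranges of the other vehicle libraries (397 to 2021) and of 1,25 NP veins (483 to 1096). The summed level of 7 skeletal muscle markers was also highest in P17, at 32.2 RPKM against 8.60 to 17.1 in the other 12. Nearly all of that sum came from PYGM (26.3 RPKM) and TNNC1 (5.56 RPKM), and 3 of the 7 markers were highest in P17. MYLPF was at 0.0612 RPKM in P17 and 1.15 in P21. For other markers P17 lay within the range of the other 12 libraries: 242 RPKM for endothelium (115 to 252), 14786 for fibroblasts (9687 to 52221) and 71.9 for B and plasma cells (54.1 to 111). Of 8 plasmacytoid dendritic cell markers only TCF4, IRF8 and PACSIN1 had a row, summing to 72.9 RPKM in P17 and 42.7 to 86.8 in the other 12, and these are not limited to that cell type. The part of these cell types in the level of interferon-stimulated genes in P17 was not tested.

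Vehicle library P16 was high for another set of interferon targets. Of 18 genes of the interferon-gamma list in the table, 15 were higher in P16 than in P17, while of the 32 members 27 were higher in P17. The 35 other interferon-stimulated genes in the table were split nearly evenly, with 18 higher in P17 and 17 in P16. Relative to the median of the other 11 libraries, the interferon-gamma list had a median log2 ratio of 1.52 in P16 and 0.42 in P17, the 32 members had 0.49 and 1.60, and the other interferon-stimulated genes 0.59 and 0.78. Both comparisons describe single libraries and have no replicate check. The share of all genes higher in P16 than in P17 is not given here. The following genes of that list were chosen after their values were seen. IDO1, the tryptophan-degrading enzyme, had 58.6 RPKM in P16, 0 reads in P17 (which allows up to 0.0355 RPKM) and 0.0327 to 19.3 RPKM in the other 11. The immunoproteasome subunit PSMB9 had 31.2 RPKM in P16 and 5.69 in P17, and PSMB8 had 31.1 and 7.82. The peptide transporter TAP1 had 75.1 and 42.1 RPKM, and the chemokine CXCL9 had 12.03 and 0.515, although its highest value, 12.4 RPKM, was in vehicle P14. The 3 genes of that list higher in P17 were SERPING1 (659 RPKM in P16 and 726 in P17), IL18BP (4.24 and 5.13) and HAPLN3 (0.556 and 2.14). GBP1, the guanylate-binding partner of GBP2, is a name of the member list and not of the interferon-gamma list. The row with its identifier had 51.8 RPKM in P16, 8.24 in P17 and 2.32 to 26.7 in the other 11. CXCL10, a chemokine induced by both kinds of interferon, was similar in both, at 29.1 and 26.5 RPKM, and reached 48.5 RPKM in 1,25 NP library P32. In P16 the summed macrophage markers were 2021 RPKM, against 397 to 1096 in the other 12 libraries, and the T and NK cell markers 134 RPKM, against 27.3 to 87.0. Their part in the interferon-gamma targets of P16 was not tested.

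**Figure D4:**
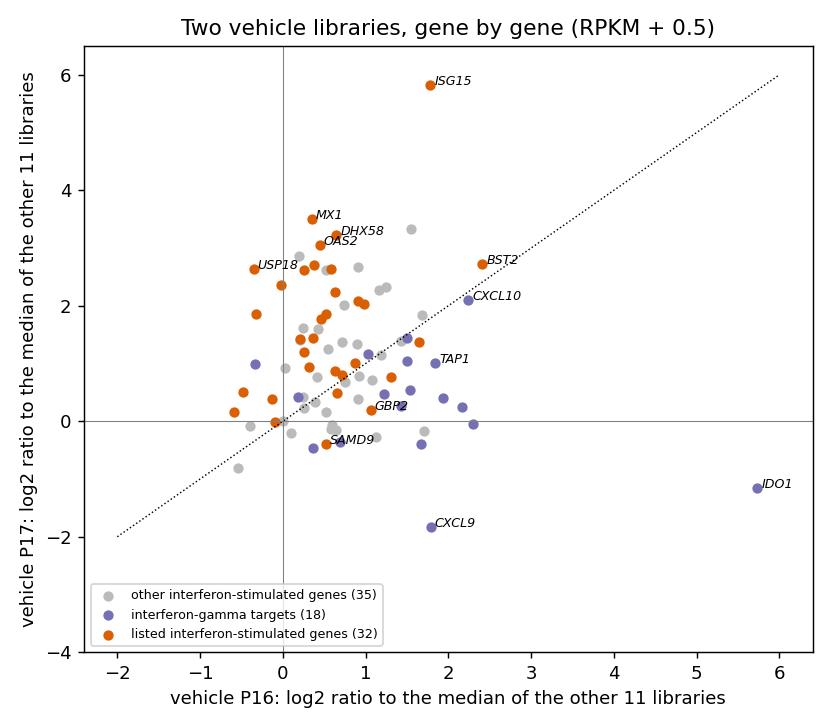
Log2 ratio of RPKM + 0.5 in vehicle P16 (horizontal) and vehicle P17 (vertical) to the median of the other 11 libraries, for each gene of the 3 lists; the dotted line marks equal ratios. Of the 32 listed interferon-stimulated genes 27 lie above the line, and 15 of the 18 interferon-gamma targets lie below it, with ISG15 and IDO1 at the far ends. The 35 other interferon-stimulated genes lie on both sides, 18 above and 17 below.

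In 1,25 NP veins, P24 was the highest treated library for 19 of 32 members, among them MX1, OAS2 and EIF2AK2, and was second only to P17 in the mean over members. P28 combined the highest treated values of ISG15 (29.9 RPKM), IRF7 (3.51 RPKM), IRF9 (12.4 RPKM) and DHX58 (3.35 RPKM) with the lowest treated values of 11 members, among them SAMD9 (1.55 RPKM), IFIT5 (1.55 RPKM) and PARP9 (1.64 RPKM). For 31 of the 32 members the lowest of all values fell in vehicle P13 or in 1,25 NP P23, P28 or P31. These 4 libraries also had low levels over all genes: the median log2(RPKM + 0.5) of all genes tested was 1.96 to 2.18 in them and 2.30 to 2.50 in the other 9. P28 and P31 held the lowest value of 37.7% and 29.4% of all genes tested, against 23.3% and 26.7% of the members. P13 and P23 held the lowest of 10.02% and 4.48% of all genes and of 26.7% and 20.0% of the members. With the median over all genes taken off each library, the difference of the group means over the 32 members was -0.20.

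Other genes of the pathway came from lists made with earlier results of these data known, and 0 genes of any list passed in either direction (limma, adjusted p under 0.05). Beside the counts below, 56.2% of all genes tested lay below 0 with all libraries, and 55.5% without P17. Values below are mean RPKM ± SD, for 5 vehicle and then 8 treated libraries. Among receptors and their kinases 4 of 7 tested lay below 0, with a median of -0.062. IFNAR1, a chain of the type I receptor, had 38.0 ± 14.6 and 47.3 ± 17.9, IFNGR2, a chain of the interferon-gamma receptor, 43.6 ± 15.8 and 35.6 ± 9.52, and the kinase JAK1 68.9 ± 13.8 and 66.2 ± 13.99. Each of these differences was smaller than the larger SD.

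Among other transcription factors 9 of 10 lay below 0, with a median of -0.26. STAT3 had 44.3 ± 12.5 and 42.2 ± 10.4, and IRF8, a factor of myeloid cells, 26.7 ± 11.997 and 19.3 ± 12.03. Nucleic acid sensing genes had 8 of 11 below 0 (median -0.12), among them the adaptors MAVS, at 9.68 ± 3.95 and 6.52 ± 2.91, and MYD88, at 12.2 ± 4.85 and 10.99 ± 3.67. The kinase TBK1, which activates interferon regulatory factors, had 12.8 ± 6.24 and 20.2 ± 9.66. Inhibitors had 7 of 12 below 0 (median -0.22). SOCS1, which blocks JAK kinases, had 1.32 ± 1.01 and 0.944 ± 0.733, and PIAS1 had 11.6 ± 5.68 and 13.8 ± 6.39. The phosphatases PTPN11 and PTPN1 had 24.1 ± 5.85 and 15.2 ± 5.86 in vehicle veins, and 30.97 ± 7.71 and 13.1 ± 4.13 in treated ones.

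Of 34 further interferon-stimulated genes tested, 29 lay below 0 (median -0.22), and without P17 22 of 34 did, with a median of -0.13. IFI30, a lysosomal reductase, had 89.1 ± 70.03 and 77.4 ± 37.99, IFITM3 86.9 ± 109 and 50.4 ± 17.7, and SAMHD1, a nucleotide phosphohydrolase, 50.5 ± 28.0 and 55.8 ± 34.8. The interferon-gamma targets had 14 of 17 below 0 with P17 and without it, with medians of -0.28 and -0.32. P16 held the highest value for 11 of the 18 genes of that list and P17 for 1. A count without P16 is not given here, so how far the 14 of 17 rest on P16 was not tested. The complement inhibitor SERPING1 had 490.1 ± 204 and 311 ± 139, and B2M, the light chain of class I molecules, 65.98 ± 37.4 and 51.8 ± 29.2. TAP1 had 34.3 ± 25.5 and 21.9 ± 11.5, and CXCL10 13.2 ± 13.5 and 17.8 ± 18.05.

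For the members tested, the 95% interval of the log2 difference reached a median of 1.01 to either side, 2.01-fold, against 0.70 over all genes tested. The intervals are not adjusted for the number of genes, and the narrowest reached 0.59 and the widest 2.05. No member passed a test of whether the treatment difference depended on sex (limma, 0 at an adjusted p under 0.05, 0 at an unadjusted p under 0.05). Rows of the table can overlap: another row with a mean above 0.5 RPKM overlapped the interval of 14 members. OAS1 (chromosome 14, 38851918 to 38859409 in the file's coordinates) lies inside the row of OAS2 (38827660 to 38860820), and IFIT1 (101214710 to 101249501) lies inside the row of LIPA. The row of REC8 covers 99.9% of the interval of IRF9, TOPORS 99.8% of that of DDX58, and PAN2 86.9% of that of STAT2. In RefSeq's annotation of Sscrofa11.1, IFIT3 lies between IFIT2 and IFIT1, and GBP1 is the neighbour of GBP2. In the file the row of GBP1 covers 88.5% of the interval of GBP2. No source used here states the strand setting of the counting, and how reads were split between such rows is uncertain.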

How the data were processed

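The authors deposited 1 table of 30477 genes with an RPKM value for each of 13 libraries. Its header names no unit. RPKM was inferred because value × (length + 1) × library total gave whole reads for 100% of values above 0, within 0.001 reads, with the total taken from each library's smallest value. Libraries were made with a TruSeq V2 kit from 0.5 µg of total RNA, per the labels' protocols. The labels' treatment text describes mice and the submitters' processing notes name a mouse genome build. Both conflict with the pig identifiers and were not used. No source used here names the aligner, the counter or the pig build, and coordinates are those in the file.

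Columns carry group, code and sex but no replicate number, and were assigned to groups by name. Genes above 0.5 RPKM in at least 5 libraries (14579) were fitted as log2(RPKM + 0.5) with limma 3.58.1 (R 4.3.3) and a mean-variance trend, with Benjamini-Hochberg adjustment over all of them. Fold changes on this scale understate changes of low genes. For members below the filter, a two-sided exact permutation test ran over 1287 splits. Intervals cover the spread between libraries. The fit was tested on simulated data with independent noise in each gene and known shifts. Those data held no outlying library such as P17, so the test does not cover that case. Members and lists were chosen with earlier results of these data known. All members are named. In each other list the 3 genes with the highest mean are named, plus IFNB1, IFNG, IFNAR1, SOCS1, CXCL10 and HBB, and marker lists are given as sums. Some genes that this rule names are not reported here. Figures were drawn with matplotlib 3.10.9. Alternatives covered pseudocount, filter, scaling, voom, weights, sex and each library left out.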

Additional observations from a re-analysis of the deposited data

Results flagged for a closer look

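Within each group, the highest and lowest library was compared with its nearest neighbour, for each of the 32 members and for the mean over members, on the log2(RPKM + 0.5) scale (Dixon's ratio at 95%). Of 66 such groups, 6 held a library set apart, and chance gives about 1 in 20. The groups share the same libraries and are not independent, and 5 of the 6 were P17, so that rate is only a rough guide. Vehicle P17 was set apart for MX1 (128 RPKM, next 13.9), MX2 (34.3, next 6.23), HERC5 (14.1, next 2.58), USP18 (19.7, next 2.95) and DHX58 (18.2, next 2.64). 1,25 NP P28 was set apart for IRF7 (3.51 RPKM, next 0.846). ISG15 in P17 was not among them, since the other 4 vehicle libraries spread from 1.67 to 9.04 RPKM.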

How the results depend on the processing

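No paired analysis was possible because the columns carry no replicate number. No member passed in any of the 23 alternative fits. The number of genes passing over all genes ran from 0 to 1 with 1 library left out, and was 0 in the other settings. With all libraries, 6 members lay above 0. With 1 library left out, this number ran from 1 (without vehicle P13) to 19 (without vehicle P17), with 3 without vehicle P14. Of all genes, 65.4% lay below 0 without P13, 55.5% without P17 and 55.0% without P14, against 56.2% with all libraries. The number of members above 0 was 20 of 30 in voom with sample quality weights, where 48.6% of all genes lay below 0. That fit gave P28 the lowest weight, 0.169, and P17 0.656. The median over members lay between -0.55 (without vehicle P13) and 0.30 (quality weights). It was -0.24 with median-of-ratios scaling, where the median of all genes moved from -0.071 to -0.010. Chosen after seeing the data were the difference of group medians and the subtraction of each library's median. Single members changed sign as follows (log2 differences): with quality weights HERC5 0.40, IFI44 0.36, IFI44L 0.16, IFIH1 0.096, IFIT1 0.41, ISG15 0.45, MX1 0.45, MX2 0.28, OAS1 0.79, OAS2 0.30, PARP14 0.30, PARP9 0.38, RSAD2 0.34 and ZNFX1 0.23; in females IFI44 0.0091, PARP14 0.45 and PARP9 0.20; in males DTX3L -0.28, HERC5 0.058, IFIT5 -0.0032, ISG15 0.49, MX1 0.13, OAS1 0.20, OAS2 0.12 and SAMD9 -0.37; with a pseudocount of 1 IFIT2 -0.0029; with median-of-ratios scaling PARP14 0.030. With 1 library left out the lowest and highest values were DDX58 -0.22 to 0.65, DTX3L -0.31 to 0.22, EIF2AK2 -0.047 to 0.49, HERC5 -0.44 to 0.31, IFI44 -0.55 to 0.14, IFIH1 -0.58 to 0.073, IFIT1 -0.66 to 0.15, IFIT2 -0.30 to 0.20, IFIT5 -0.20 to 0.38, ISG15 -1.11 to 0.43, MX1 -0.54 to 0.55, MX2 -0.53 to 0.22, OAS1 -0.72 to 0.18, OAS2 -0.87 to 0.096, PARP14 -0.48 to 0.20, PARP9 -0.43 to 0.13, RSAD2 -0.75 to 0.18 and ZNFX1 -0.45 to 0.14. Leaving out P17 changed the sign of 13 of 30 members, and 10 had the same direction in every setting. The cause of these changes was not tested.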

Other observations

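Non-member genes were ranked by how closely their levels over the 13 libraries followed the mean over members, by Spearman's rho. Among the 10 closest were TRIM22, an interferon-induced member of the tripartite motif family (rho 0.93), and NUB1, a regulator of ubiquitin-like proteins (rho 0.93). The translation factor EIF4H (0.93), GPBP1L1 (0.93) and the ubiquitin gene UBB (0.92) were also among them. These values describe how the libraries ranked, and the libraries share their depth and overall level with every gene in them.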
